A study of Caenorhabditis elegans with 26 samples.

Results

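The ceh genes are the homeobox genes of the nematode Caenorhabditis elegans that carry a numbered ceh name. They were taken here by name alone: every gene of the deposited count table whose WormBase name is ceh, a hyphen and digits, which gave 63 members among 20182 genes. Whole-worm RNA depleted of ribosomal RNA was sequenced in 2 courses of larval growth, and all worms were of the strain N2, with no mutation or drug in either course. The food of course B was the bacterium NA22 on NGM plates rich in peptone, and its 10 libraries are titled 18 to 36 h at steps of 2 h. The food of course A was the bacterium OP50 on NGM plates, and its 16 libraries are titled 21 to 36 h at steps of 1 h. In both, prepared eggs hatched overnight and the resulting first-stage larvae were placed on food. The labels say that course A grew slowly and was harvested 1 h after the time in its titles, and the times below are title times.

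A homeodomain is a DNA-binding fold of transcription factors, and the proteins that carry one are grouped into classes by the kind of homeodomain and by further domains beside it. In C. elegans these proteins are best known for giving cells their identity: nearly every neuron class expresses its own combination of them, and others act in the skin, the pharynx, the muscles, the gonad and the intestine. Many act early, while a cell type is being made, and many stay on afterwards to maintain it.

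Libraries held 22587893 to 36083371 counts in course B and 16241561 to 29911888 in course A. The ceh genes together took 0.0319 to 0.0528% of the counts of a library in course B and 0.0399 to 0.0553% in course A, and 53 to 57 of the 63 had at least 1 count in each library of course B, against 53 to 59 in course A. Levels are given as CPM, counts per 1e6 counts of the TMM-scaled library. A count of 0 leaves room for a level of up to 3 counts, or 0.0932 to 0.152 CPM in course B and 0.102 to 0.186 CPM in course A. These limits cover counting error only. No time was sampled more than once, so the p-values reflect how far single libraries lie from a fitted curve, not how cultures differ. Food, medium, day of growth and pace of growth all change with the course and cannot be told apart. In whole worms, fewer cells of a type and less RNA per cell cannot be told apart either.

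Per kilobase of exon, the most abundant ceh transcript was that of ceh-20, a relative of Pbx and Extradenticle that serves as a partner of Hox proteins. Its level averaged 47.5 CPM per kb over course B and 33.5 CPM per kb over course A, which was 17.5% and 13.3% of the level summed over all 63 members. Next came ceh-100, whose protein carries several homeodomains, at 19 and 15.2 CPM per kb, and ceh-18, a POU gene of the gonadal sheath cells, at 17.9 and 11.7 CPM per kb. The range of ceh-20 over the libraries, 21 to 71.5 CPM per kb in course B and 17.7 to 51.3 CPM per kb in course A, overlapped that of ceh-100 in both courses and that of ceh-18 in course B. In course A the highest library of ceh-18, at 16.6 CPM per kb, lay below the lowest of ceh-20. The levels of ceh-93 (15.5 and 12.9 CPM per kb) and of the ONECUT gene ceh-38 (13.6 and 14.1 CPM per kb) were not separated from each other beyond the spread over libraries. In all, 39 members averaged at least 1 CPM per kb in course B and 40 did so in course A.

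**Figure D1:**
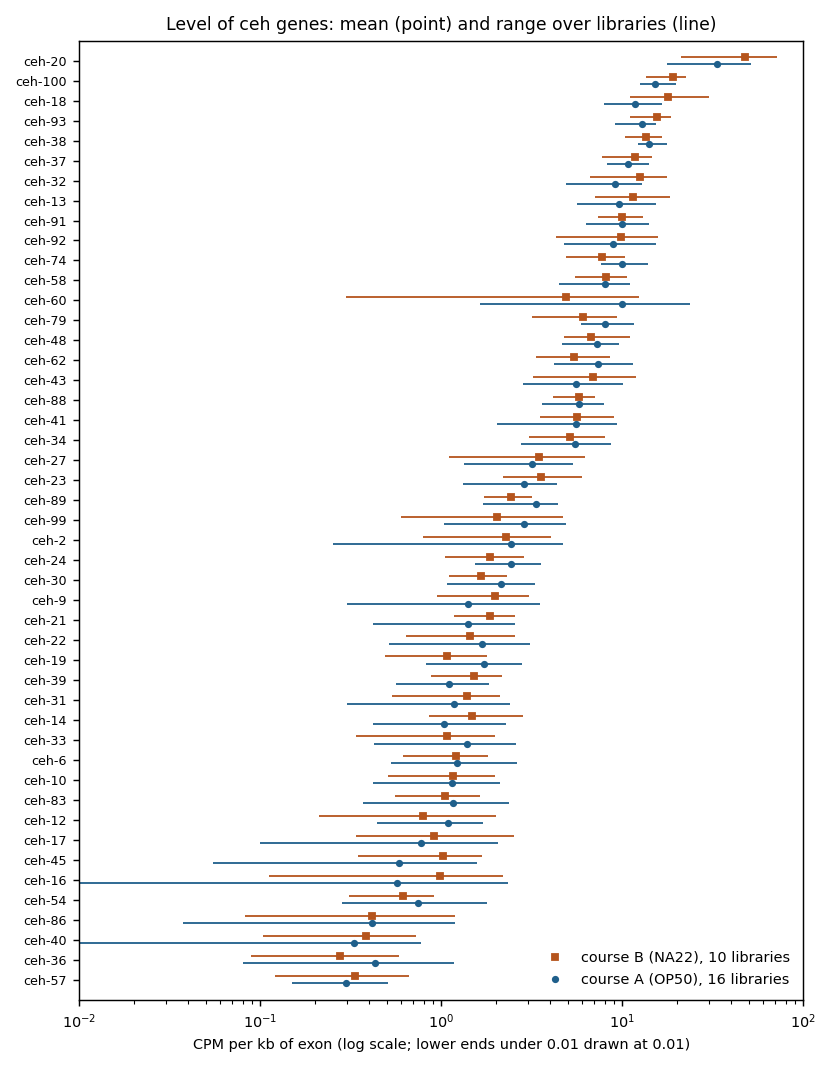
Mean level (point) and range over libraries (line) in CPM per kb of exon, on a log axis, for the 47 ceh genes tested in both courses, course B (10 libraries) above course A (16 libraries) in each row. ceh-20 leads at 47.5 and 33.5 CPM per kb.

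With time the ceh genes mostly went down. A curve with linear time and an 8 h cycle was fitted to each gene in each course, and a gene was called falling or rising when its linear change, the trend, reached 1 on the log2 scale over 15 h at an adjusted p under 0.05. Of the 48 members tested in course B, 18 fell, where 12.1% of all genes tested in that course did. In course A 19 of 48 fell, against 12.7% of all genes. In both courses 14 of 47 members fell, which is 29.8%, against 7.84% of all genes tested in both. Rises were few: 2 of 48 members in course B (16% of all genes), 3 of 48 in course A (21.1% of all genes), and 2 of 47 in both (15% of all genes). The median trend of the members was -0.77 in course B and -0.85 in course A, and that of all genes was -0.06 and 0.04. The fitted trend lay below 0 in both courses for 37 of 47 members (78.7%) and for 42% of all 14920 genes tested in both. The summed level of the 63 members was 437.5 ± 40.6 CPM over the 4 libraries of course B from 30 to 36 h and 541 ± 27.5 CPM over the 4 from 18 to 24 h (SD). In course A it was 418.3 ± 27.7 CPM over the 8 libraries from 29 to 36 h and 460.2 ± 12.4 CPM over the 8 from 21 to 28 h. These 2 windows of each course are called late and early below.

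**Figure D2:**
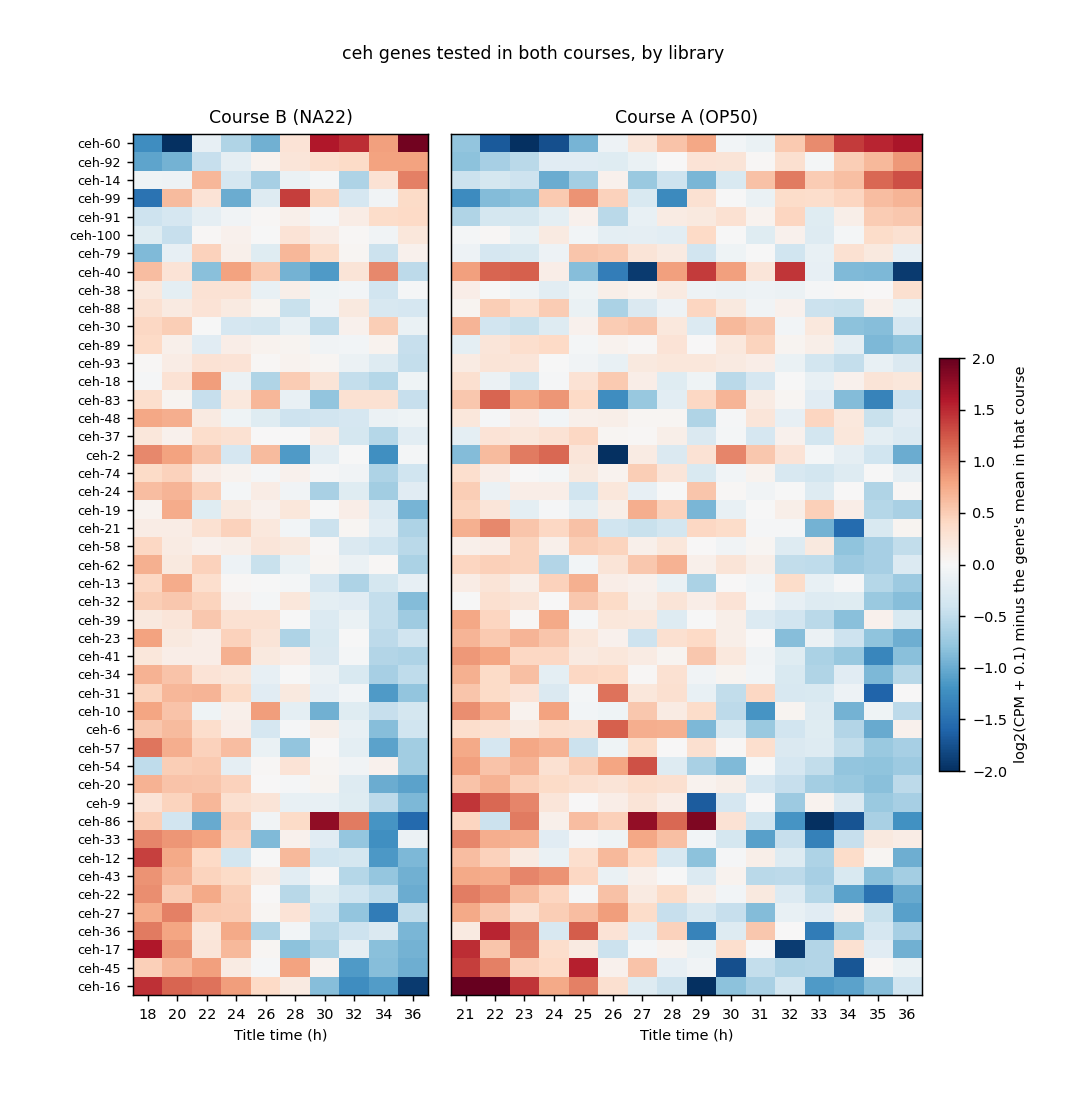
Each of the 47 ceh genes tested in both courses is a row, each library a column in order of title time, and the colour is log2(CPM + 0.1) minus the gene's mean in that course, course B left and course A right. Rows are ordered by the mean of both fitted trends. Red at the left end and blue at the right end mark the genes at the bottom, whose levels were higher in the early libraries, and the opposite order marks ceh-60 and ceh-92 at the top.

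**Figure D3:**
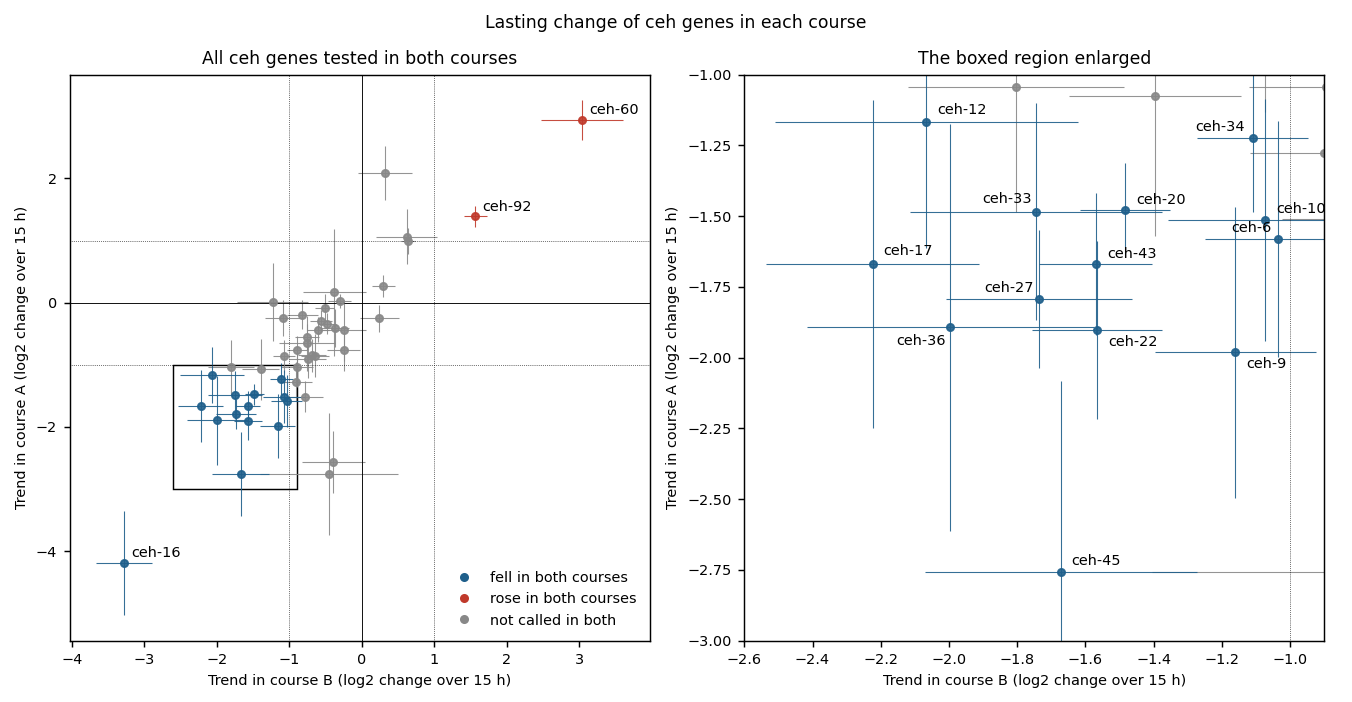
Fitted trend of each ceh gene in course B (horizontal) and course A (vertical), in log2 change over 15 h with standard errors as lines, for all genes left and for the boxed region enlarged right. Dotted lines mark a change of 1. The 14 genes that fell in both courses lie at the lower left, ceh-16 farthest out, and ceh-60 and ceh-92 are the 2 that rose in both.

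The steepest fall was that of ceh-16, a relative of engrailed that acts in the seam cells, the stem-like cells of the skin. In course B its level was 2.02 CPM at 18 h, its highest, and 0.103 CPM at 36 h, its lowest, with a median of 0.841 CPM. In course A the highest level was 2.16 CPM at 22 h, the median 0.225 CPM, and at 29 h it had no count. The late mean was 0.227 CPM and the early mean 1.61 CPM in course B, and no late library reached an early one. In course A the means were 0.137 and 0.912 CPM, with an overlap of the windows between 0.217 and 0.229 CPM. The trend was -3.28 ± 0.39 in course B (adjusted p = 0.000191) and -4.19 ± 0.84 in course A (adjusted p = 0.000649). These values rest on few counts, 240 in course B and 181 in course A, and limma on the deposited log2 values, which carry 8 added counts, gave -2.15 in course A. An exon of polk-1 lies on the opposite strand, and the treatment of strands is not given in the sources used here. polk-1 itself had trends of 0.55 and 1.25.

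ceh-43, a relative of Distal-less in the anterior skin, fell to a late mean of 4.56 CPM, against 10.3 CPM early, in course B, and to 3.93 CPM, against 7.76 CPM, in course A. The trends were -1.57 ± 0.17 and -1.67 ± 0.25. In course B the windows did not overlap, with 6.55 CPM the highest late and 8.73 CPM the lowest early value, whereas in course A the highest late library, at 5.62 CPM, lay above the lowest early one, at 4.87 CPM. Of the 5 skin markers tested in both courses 3 oscillated (16.5% of all genes) and 1 fell (7.84% of all genes). Their sum was 793.6 CPM late and 1448 CPM early in course B and 477.2 and 706.4 CPM in course A. The sixth, col-19, could not be tested in course B and averaged 18.0 and 199.7 CPM over the courses. With it the sums were 838.4 and 1449 CPM in course B and 876.6 and 706.5 CPM in course A. Their part in the falls of ceh-16 and ceh-43 was not tested. ceh-13, the worm's labial-type Hox gene, passed the test in both courses with trends of -0.90 ± 0.14 and -0.76 ± 0.22, short of the minimum of 1.

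The 3 genes of the PBC class, the relatives of Pbx, had unlike calls. In both courses ceh-20 fell and ceh-60 rose, and in course A an 8 h cycle of ceh-60 was called too. For ceh-40 a cycle was called in both courses, on 117 and 143 counts. Leaving out any one of several libraries ended that call, as given below. ceh-20 reached 91.5 CPM at 18 h, with a median of 57.5 CPM, and its lowest value in course B was 26.8 CPM at 36 h. Course A spanned 22.7 CPM at 35 h to 65.6 CPM at 22 h, with a median of 46.2 CPM. Late and early means were 40.2 and 83.8 CPM in course B and 31.0 and 54.6 CPM in course A, and in neither course did the windows overlap. The trends were nearly equal, -1.48 ± 0.13 in course B (adjusted p = 3.45e-05) and -1.48 ± 0.17 in course A (adjusted p = 1.64e-06). With 15899 counts in course B and 15286 in course A, ceh-20 is the best measured of the falling members. unc-62, a homeobox gene without a ceh name whose protein pairs with PBC proteins, had trends of -1.01 ± 0.15 and -0.66 ± 0.19, and its fall was called in course B alone.

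Of the members known from the pharynx, ceh-22 and ceh-34 fell in both courses. ceh-19, a gene of pharyngeal neurons, was called falling in neither, at -0.76 ± 0.39 and -0.65 ± 0.44. ceh-22, an NK-2 gene and relative of vertebrate Nkx2.5 that turns on pharyngeal muscle genes, had a late mean of 2.16 CPM and an early mean of 5.08 CPM in course B. In course A the means were 2.67 and 5.29 CPM. The windows were apart in course B and overlapped in course A, and the trends were -1.57 ± 0.19 and -1.90 ± 0.31. ceh-34, a gene of the sine oculis class in the pharyngeal neurons, fell with trends of -1.11 ± 0.16 and -1.23 ± 0.26, and without the 34 h library its trend in course B was -0.96, under the minimum. Its late and early means were 4.15 and 7.51 CPM in course B and 4.72 and 7.51 CPM in course A. C10G8.2, a gene with at most 0.502 CPM on average in either course, overlaps it on the opposite strand. ceh-33, of the same class, lies within 20 kb of ceh-34 and fell with trends of -1.75 ± 0.37 and -1.49 ± 0.38. Adding a quadratic term in time ended that call in course B, where the trend became -1.16 (adjusted p = 0.0806). The remaining gene of the class, ceh-32, was called in course B alone, at -1.07 ± 0.15, and passed the test below the minimum in course A, at -0.86 ± 0.27.

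Of the other NK-2 genes, ceh-27 fell in both courses with trends of -1.74 ± 0.27 and -1.79 ± 0.24. Its late and early means were 2.18 and 6.06 CPM in course B and 2.65 and 4.90 CPM in course A. ceh-24, known from the vulval muscles and muscles of the head, fell in course B alone, where the trend was -1.09 ± 0.24, and in course A it was -0.25 ± 0.29. ceh-28, the NK-2 gene of the M4 neuron of the pharynx, had 17 counts in all of course B and 14 in course A, too few to be tested. The pharyngeal muscle markers, taken as a list, stood at a summed 1129 CPM late and 1577 CPM early in course B and at 1127 and 1545 CPM in course A. Of these 5 markers 1 fell in both courses (7.84% of all genes) and 3 oscillated in both (16.5% of all genes). Their median trends were -0.79 in course B and -1.08 in course A. Their part in the values of ceh-22 and ceh-34 was not tested.

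Of the 5 tested genes grouped here as paired-like and Otx, which are known mostly from neurons, 4 fell in both courses. Among all members tested in both 29.8% fell in both, and among all genes 7.84%. ceh-36, an Otx relative of the AWC and ASE sensory neurons, fell to a late mean of 0.166 CPM, against 0.535 CPM early, in course B, and to 0.289 CPM, against 0.709 CPM, in course A. Its trends were -1.996 ± 0.42 and -1.89 ± 0.72. It held 87 and 174 counts. In course A its adjusted p, 0.0401, moved to between 0.0573 and 0.1 without any one of the libraries of 22, 23, 25, 26, 30, 32, 33, 34 and 36 h, and limma on the deposited log2 values gave -0.96 in course B and -1.09 in course A. ceh-45, a relative of Goosecoid, had trends of -1.67 ± 0.40 and -2.76 ± 0.67, and limma gave -1.63 in course A. Its levels ran from 0.297 to 1.44 CPM in course B and from 0.0468 to 1.35 CPM in course A.

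ceh-10, a gene of the AIY interneurons and the CAN neurons, had trends of -1.07 ± 0.28 and -1.51 ± 0.43. In course B that value lies close to the minimum, and it was -0.97 without the 30 h library and -0.77 (adjusted p = 0.0681) without the 34 h library. ceh-17, a relative of Phox2 in the ALA and SIA neurons, had its highest level of course B at 18 h, 2.30 CPM, and its lowest at 36 h, 0.309 CPM, with a median of 0.652 CPM. Over course A it ranged from 0.0915 CPM at 32 h to 1.88 CPM at 21 h. The trends were -2.22 ± 0.31 and -1.67 ± 0.58, and the call in course A was lost without the 21 h library (adjusted p = 0.113) or the 36 h library (adjusted p = 0.0749). ceh-37, the Otx relative of the AWB olfactory neurons and a neighbour of ceh-36 within 20 kb, was not called. It averaged 14.7 CPM late and 20.4 CPM early in course B and 14.4 and 17.6 CPM in course A, with trends of -0.60 ± 0.15 and -0.43 ± 0.20.

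ceh-12, the worm relative of HB9 in the VB motor neurons, fell to a late mean of 0.221 CPM, against 0.708 CPM early, in course B, and to 0.527 CPM, against 0.793 CPM, in course A. The trends were -2.07 ± 0.44 and -1.17 ± 0.45. The course A call, at an adjusted p of 0.042, was lost without any one of the libraries of 21, 22, 23, 25, 26, 27, 32, 33 and 36 h, where adjusted p lay between 0.0514 and 0.13. ceh-6, a POU gene of the excretory cell and of rectal cells, had trends of -1.04 ± 0.21 and -1.58 ± 0.42. Its course B trend slipped under the minimum, to between -0.99 and -0.84, without any one of the libraries of 18, 20, 30 and 34 h, and was -0.95 with DESeq2's size factors. ceh-9, for which no role is given here, had trends of -1.16 ± 0.24 and -1.98 ± 0.51, and -0.95 in course B without the 36 h library.

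Markers of neurons in general moved the same way. Of the 12 pan-neuronal genes, 8 fell in both courses (7.84% of all genes) and none rose (15% of all genes). Their median trends were -1.22 in course B and -1.08 in course A. Among those not called, snb-1 had -0.29 ± 0.11 and -0.09 ± 0.26 and ric-19 had -0.56 ± 0.15 and -0.12 ± 0.21. Ranked by the smaller of the falls in the 2 courses, the first were unc-10, whose protein acts at the active zone of synapses, at -1.47 ± 0.20 and -1.70 ± 0.17, rab-3, a gene of synaptic vesicles, at -1.47 ± 0.10 and -1.39 ± 0.18, and rgef-1, at -1.24 ± 0.13 and -1.31 ± 0.22. Their summed level was 580.8 CPM late and 1068 CPM early in course B and 505.5 and 739.5 CPM in course A. The germline and oocyte markers moved the other way: 13 of 15 rose in both courses, where 15% of all genes did. Their sum was 1994 CPM late and 758.5 CPM early in course B and 1403 and 677.6 CPM in course A. All 9 sperm markers rose as well, to a summed 336.3 CPM late, against 5.60 CPM early, in course B, and to 336.8 CPM, against 21.5 CPM, in course A. Of the 4 body wall muscle markers 1 fell in both courses, and their sum was 8609 CPM late and 10260 CPM early in course B and 5850 and 5574 CPM in course A. CPM are shares of a library, and the part of these shifts in the falls of the ceh genes was not tested.

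The change was called in a single course for some members, and the trend itself did not differ between the courses at an adjusted p under 0.05 for any of 51 members, where 0.541% of all genes did. At an unadjusted p under 0.05, edgeR and DESeq2 gave 4 members each and limma gave 3, with none left by DESeq2 or limma after adjustment. ceh-14, a relative of Lhx3 in the AFD thermosensory neurons, rose in course A, where its trend was 2.09 ± 0.43 (adjusted p = 0.000817), and had a trend of 0.32 ± 0.37 in course B. Its late and early means were 3.20 and 2.80 CPM in course B and 2.73 and 1.21 CPM in course A, and the difference of the trends had an adjusted p of 0.21. ceh-54 fell in course A, at -2.56 ± 0.50, and had -0.39 ± 0.44 in course B. Its difference of trends, 2.24 ± 0.65, had an adjusted p of 0.135, and it was called without the course B library of 36 h. ceh-57 fell in course B, at -1.80 ± 0.32, and had -1.04 ± 0.44 in course A (adjusted p = 0.0639), where it was called without the libraries of 22 h (-1.28) or 25 h (-1.21). ceh-86 fell in course A, at -2.76 ± 0.98, a call that was lost without any one of the libraries of 23, 27, 33, 34 and 36 h at adjusted p of 0.057 to 0.0885. In course B ceh-86 had -0.45 ± 0.95.

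The ONECUT genes, whose proteins carry a cut domain beside the homeodomain, held no member that fell in both courses among the 5 tested. Of all genes 7.84% fell in both, and a class of 5 is too small to be set apart from that share. ceh-48, which is expressed throughout the nervous system, averaged 10.3 CPM late and 16.4 CPM early in course B, with its highest level of 20.6 CPM at 18 h, and 13.1 and 14.1 CPM in course A. Its trends were -0.82 ± 0.22 (adjusted p = 0.0147) and -0.19 ± 0.24 (adjusted p = 0.535). ceh-38, the ONECUT gene with the highest level per kb, ranged from 29.6 to 47.4 CPM in course B and from 35.0 to 50.5 CPM in course A, with no call. Its exons overlap those of tra-2 on the opposite strand, and tra-2 had mean levels of 80.5 and 83.5 CPM. ceh-39, known as a signal of X chromosome number in sex determination, and its neighbours ceh-21 and ceh-41 lie together within 20 kb on the X chromosome. ceh-39 and ceh-41 fell in course A alone, at -1.04 ± 0.31 and -1.51 ± 0.25, against -0.89 ± 0.23 and -0.78 ± 0.24 in course B. There both passed the test below the minimum (adjusted p = 0.0113 and 0.0279). ceh-21 had -0.65 ± 0.20 and -0.85 ± 0.34.

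ceh-60 had the largest rise among the members tested. It encodes a PBC protein of the intestine that is known to promote the yolk genes. Its level in course B was 0.396 CPM at 20 h, its lowest, 13.1 CPM at 30 h and 16.5 CPM at 36 h, its highest, with a median of 4.48 CPM. In course A it was lowest at 23 h, 2.18 CPM, reached 17.2 CPM at 29 h, stood at 9.19 CPM at 31 h and was highest at 36 h, 31.5 CPM, with a median of 10.8 CPM. Late and early means were 12.3 and 2.18 CPM in course B, where the late mean was 5.65 times the early one and the windows did not overlap. In course A they were 19.6 and 6.93 CPM, a ratio of 2.84, and the windows overlapped. The trends were 3.04 ± 0.56 (adjusted p = 0.00266) and 2.94 ± 0.32 (adjusted p = 1.04e-06). In course A an 8 h cycle was called on top of the rise, with a peak-to-trough difference of 1.28 ± 0.25 (adjusted p = 0.00324). In course B the cycle was not called, at 1.25 ± 0.61 (adjusted p = 0.297), but it was without the 18 h library, at 2.05 (adjusted p = 0.0255). ets-4, a gene with exons on the opposite strand of ceh-60, averaged 36.2 and 34.0 CPM. Its own peak-to-trough differences were 1.00 (adjusted p = 0.00562) and 1.16 (adjusted p = 0.000143), and its trends were -0.59 and 0.12.

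The yolk genes were measured in the same libraries. The 6 vit genes summed to 139.9 CPM late and 0.714 CPM early in course B and to 1358 and 3.98 CPM in course A. All 3 that could be tested in both courses rose in both, where 15% of all genes did. At the 8 shared times, 4 of the 6 were lower in course B, where 7.74% of all genes were. Of these, vit-5 had too few counts to be tested in course B alone, with means of 0.0894 and 12.8 CPM over the courses. It could pass the count filter of this comparison only with libraries of course A, where its level was high. ceh-60 averaged 7.89 CPM in course B and 14.1 CPM in course A at the 8 shared times. That difference of -0.77 ± 0.34 was not called (adjusted p = 0.125). With the libraries of course A taken 3 h earlier by title, the difference of ceh-60 was -0.31 ± 0.15 (adjusted p = 0.117). Differences of the yolk genes at that offset are not given here.

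ceh-92, for which no role is given here, also rose in both courses. It was lowest at the first time of each course, 10.6 CPM at 18 h in course B and 11.7 CPM at 21 h in course A, and highest at 36 h in both, 38.6 and 37.7 CPM. The medians were 24.7 and 20.3 CPM. The trends were 1.57 ± 0.16 (adjusted p = 6.71e-05) and 1.39 ± 0.17 (adjusted p = 4.06e-06). ceh-91 passed the test with smaller rises, 0.63 ± 0.10 and 0.999 ± 0.21, just under the minimum in course A. It averaged 25.2 CPM late and 18.0 CPM early in course B, and 25.1 and 18.0 CPM in course A.

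**Figure D4:**
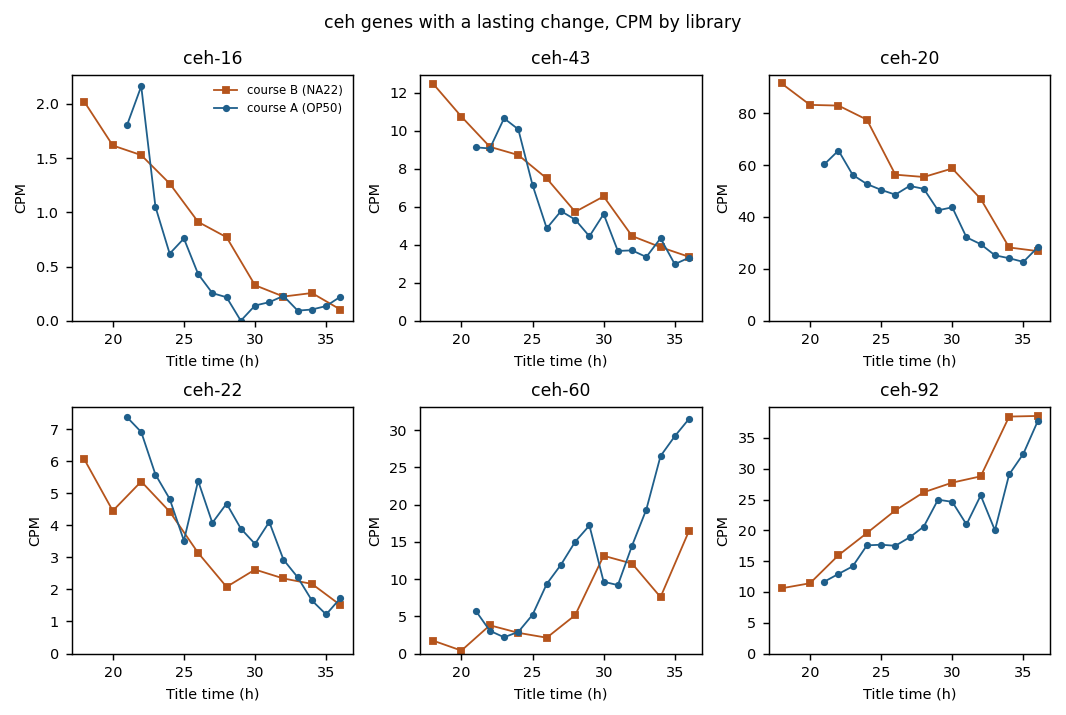
CPM by title time in each library for 4 ceh genes that fell (ceh-16, ceh-43, ceh-20, ceh-22) and the 2 that rose (ceh-60, ceh-92), course B as squares and course A as circles. ceh-20 runs from 91.5 CPM at 18 h to 26.8 CPM at 36 h in course B, and ceh-60 reaches 16.5 CPM in course B and 31.5 CPM in course A at 36 h.

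Cycles were rarer among the ceh genes than falls. A gene was called oscillating when the 8 h cycle had an adjusted p under 0.05 and its fitted peak lay at least 1 above its trough, in log2. This held for 4 of 48 members in course B (21% of all genes tested), for 5 of 48 in course A (22.8% of all genes) and for 2 of 47 in both (16.5% of all genes). The median peak-to-trough difference of the members was 0.41 in course B and 0.47 in course A, and that of all genes was 0.56 and 0.60. Of the 2 that oscillated in both courses, neither exceeded 4.32 CPM in any library.

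ceh-83, for which no role is given here, ranged from 1.02 CPM at 30 h to 2.99 CPM at 26 h in course B, with a median of 2.03 CPM. In course A it ranged from 0.677 CPM at 35 h to 4.32 CPM at 22 h, with a median of 2.01 CPM, a trough of 0.732 CPM at 26 h and a second high of 3.04 CPM at 30 h. The peak-to-trough difference was 1.16 ± 0.25 in course B (adjusted p = 0.023) and 1.64 ± 0.29 in course A (adjusted p = 0.00205). The call in course B was lost without any one of the libraries of 22, 26 and 30 h, at adjusted p of 0.0796, 0.0656 and 0.0818, and at periods of 7 h (adjusted p = 0.0794) and 9 h (adjusted p = 0.219). Of all 14920 genes, 21 were called in both courses at 7 h and 0 at 9 h, against 2457 at 8 h. Losses at those periods, here and for the members below, are therefore not shown to be particular to these members.

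ceh-40, a further Pbx relative, had highs of 0.759 CPM at 24 h and 0.852 CPM at 34 h in course B and a low of 0.123 CPM at 30 h. Over course A it had 0.756 CPM at 23 h, no count at 27 h, 0.889 CPM at 29 h, 0.915 CPM at 32 h and again no count at 36 h. The peak-to-trough difference was 2.20 ± 0.52 (adjusted p = 0.0309) and 3.25 ± 0.92 (adjusted p = 0.0379). It rests on 117 and 143 counts, and limma on the deposited log2 values gave 1.23 and 1.36. The course B call was lost without any one of the libraries of 22, 28, 30, 32, 34 and 36 h, at adjusted p of 0.0505 to 0.102. The course A call was lost without any one of those of 22, 23, 24, 25, 26, 27, 29, 34 and 35 h, at adjusted p of 0.05 to 0.106, and at a period of 7 h (1.85, adjusted p = 0.426). In course B it was lost at periods of 7 h (adjusted p = 0.16) and 9 h (adjusted p = 0.177) too. xtr-2, on the opposite strand, had mean levels of 0.249 and 0.265 CPM. Within the cycle from 24 to 32 h, the fitted peaks of ceh-83 lay at 25.5 h in course B and 30.6 h in course A, and those of ceh-40 at 25.4 and 30.3 h. Read around the 8 h cycle, course B peaked 2.95 and 3.10 h after course A, and the median over all 2457 genes that oscillated in both courses was 2.73 h.

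ceh-18, whose product acts in the sheath cells of the gonad, was called in course B alone, with 76.9 CPM at 22 h, 28.3 CPM at 26 h and 61.2 CPM at 28 h. Its peak-to-trough difference was 1.11 ± 0.17 in course B (adjusted p = 0.00512) and 0.63 ± 0.15 in course A (adjusted p = 0.0147), where it passed the test below the minimum. ceh-99 had 8.24 CPM at 28 h, 4.88 CPM at 20 h and 1.06 CPM at 18 h in course B, and its highest level in course A was 8.56 CPM at 25 h. Its differences were 1.92 ± 0.42 in course B (adjusted p = 0.0244) and 0.94 ± 0.35 in course A (adjusted p = 0.0978). The course B call was lost without any one of the libraries of 20, 22, 24, 28 and 32 h, at adjusted p of 0.0503 to 0.0684, and at periods of 7 h (adjusted p = 0.0984) and 9 h (adjusted p = 0.175). Without the 29 h library ceh-99 was called in course A, at 1.23 (adjusted p = 0.0316). ceh-33, whose fall is given above, was also called oscillating in course A, at 1.25 ± 0.31 (adjusted p = 0.0153).

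**Figure D5:**
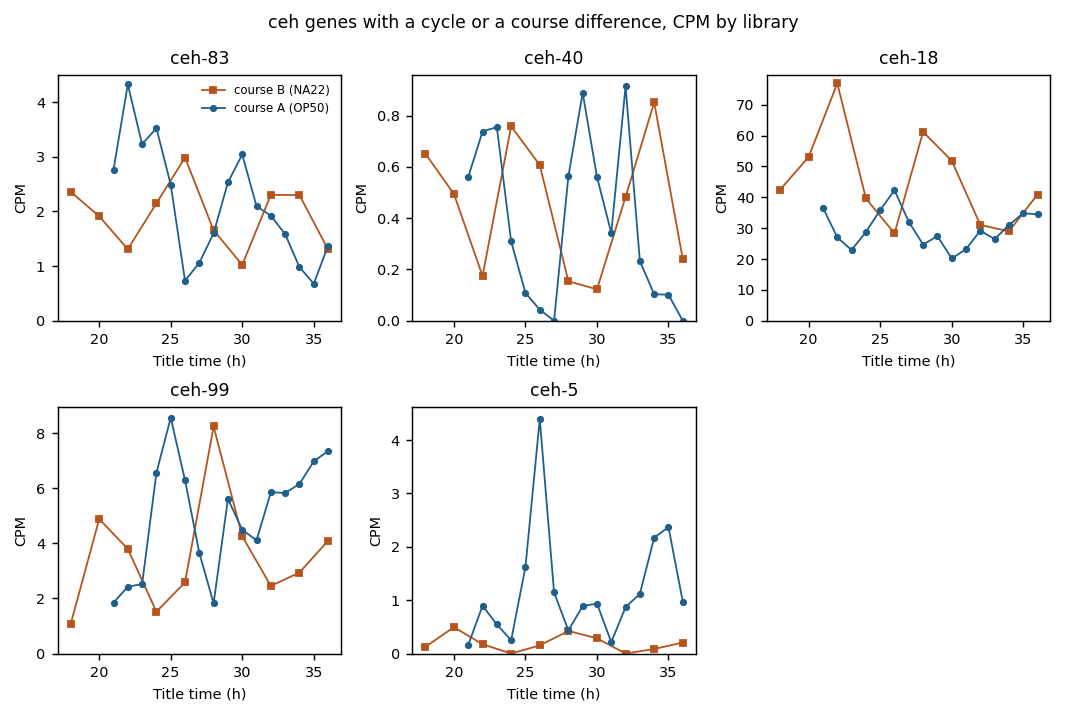
CPM by title time in each library for 4 ceh genes called oscillating in both courses (ceh-83, ceh-40) or in course B (ceh-18, ceh-99) and for ceh-5, course B as squares and course A as circles. The high of ceh-5 at 26 h in course A, 4.39 CPM, stands above all other libraries of that gene.

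Differences in level between the courses were tested at the 8 times that both courses share, 22 to 36 h, with a block on time. None of 48 members was higher in course B at an adjusted p under 0.05 and a log2 difference of at least 1, where 1.79% of all genes were. At an unadjusted p under 0.05 edgeR gave 1 such member, and DESeq2 called ceh-45. One of 48 was lower in course B, where 7.74% of all genes were. The median difference, course B minus course A, was -0.03 for the members and -0.13 for all genes. The member that differed was ceh-5, a relative of the vertebrate Vax genes. It averaged 0.166 CPM in course B and 1.37 CPM in course A at those times and was lower in course B at all 8, with a difference of -2.93 ± 0.69 (adjusted p = 0.0143). It passed the count filter of this comparison through course A alone, where 7 of the 8 libraries reached the minimum and none of course B did. In course B it had from 0 to 0.495 CPM, with a median of 0.163 CPM, and 52 counts in all. In course A it had 435 counts and ran from 0.160 CPM at 21 h to 4.39 CPM at 26 h, with a median of 0.916 CPM and further highs of 2.17 CPM at 34 h and 2.37 CPM at 35 h. It was called oscillating in course A, at 2.20 ± 0.68 (adjusted p = 0.0284), which was lost without the 26 h library, at 1.38 (adjusted p = 0.269), and without that of 31 h, at 1.96 (adjusted p = 0.0587), and at a period of 7 h, at 1.83 (adjusted p = 0.153). It had too few counts in course B for a fit of the cycle. limma on the deposited log2 values gave a difference of -1.66. ocrl-1, on the opposite strand of ceh-5, averaged 47.6 CPM over course B and 67.9 CPM over course A and had a difference of -0.52 itself.

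With no minimum set on the difference, 4 of 48 members were higher in course B, where 12.2% of all genes were, and 5 of 48 were lower, where 16.9% of all genes were. These are ceh-5 and 8 further members. Higher in course B at all 8 shared times were ceh-100, by 0.37 ± 0.07 (adjusted p = 0.00611), ceh-93, by 0.28 ± 0.09, ceh-92, by 0.23 ± 0.07, and ceh-9, by 0.56 ± 0.18. Lower in course B at all 8 were ceh-19, a gene of the MC neurons of the pharynx, at -0.84 ± 0.16 (adjusted p = 0.00628), ceh-74, at -0.46 ± 0.11, and ceh-89, at -0.54 ± 0.15. ceh-24 was lower in course B at 7 of the 8, by a difference of -0.67 ± 0.17. ceh-19 averaged 0.901 CPM in course B and 1.58 CPM in course A at these times, and mcm-3AP, with 141.2 and 124.5 CPM over the courses, overlaps it on the opposite strand.

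With the libraries of course A taken 3 h earlier by title, none of 50 members was higher in course B (4.86% of all genes were) and 3 were lower (8.06% of all genes were). The median difference was -0.255 for the members and -0.055 for all genes. The 3 lower members were ceh-5, at -2.38 ± 0.45 (adjusted p = 0.00163), ceh-12, at -1.10 ± 0.33 (adjusted p = 0.0177), and ceh-53, at -1.40 ± 0.38 (adjusted p = 0.0104). ceh-53 had 42 counts in course B and 92 in course A and averaged 0.131 and 0.347 CPM at those times. It was tested in neither course alone, and here it passed the count filter through 3 of the 7 libraries of course A and none of course B, where no library had more than 7 counts. ceh-5 also passed through course A alone, with 5 of 7 libraries. ceh-12 passed through 5 of 7 libraries of course A and 1 of course B. The filter asks for 3 libraries, so course A alone met it for all 3 lower members.

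Several abundant members had no call at the minimum change of 1. Of these, ceh-100 and ceh-93 differed between the courses below that minimum, as given above. ceh-100 ranged from 57.7 to 95.9 CPM in course B and from 53.3 to 83.8 CPM in course A. Its trends were 0.30 ± 0.16 and 0.27 ± 0.17. ceh-93 averaged 22.4 CPM late and 29.1 CPM early in course B and 20.0 and 23.0 CPM in course A, with trends of -0.48 ± 0.13 and -0.34 ± 0.17. Its course B trend passed the test below the minimum (adjusted p = 0.014). Neither of the 2 BarH genes fell in both courses, where 7.84% of all genes did. A class of 2 is too small to be set apart from that share. The BarH genes include ceh-30, known for the survival of the male CEM neurons. ceh-30 had trends of -0.25 ± 0.30 and -0.45 ± 0.49, and ceh-31, its neighbour within 20 kb, fell in course B at -1.40 ± 0.25 and had -1.08 ± 0.50 in course A.

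The X chromosome holds 18 of the 63 members, which is 28.6%, against 13.7% of the table's genes that could be placed on a chromosome. Of its 14 members tested in both courses 1 fell in both, ceh-36, and of all genes placed on it and tested 13.1% did. On chromosome I 5 of 6 members fell (5.07% of all genes), on III 4 of 8 (5.01%), on V 4 of 8 (9.38%), on II 0 of 8 (7.12%) and on IV 0 of 3 (7.05%). No test was made of this split, and members that lie side by side are not independent.

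The homeobox genes without a ceh name also fell more often than they rose. Of 39 such genes tested in both courses, 18 fell in both, against 7.84% of all genes. Of the same 39, 1 rose in both (15% of all genes) and 2 oscillated in both (16.5% of all genes). Among the ceh genes 14 of 47 fell in both, 2 rose and 2 oscillated. The median trends of the 39 were -1.20 in course B and -1.45 in course A. Ranked by the smaller of the falls in the 2 courses, the first were hmbx-1, at -3.87 ± 0.91 and -4.64 ± 0.73, unc-42, a regulator of interneurons and motor neurons, at -2.10 ± 0.21 and -2.10 ± 0.34, and unc-39, a gene of the sine oculis class, at -2.10 ± 0.32 and -2.06 ± 0.52. The one that rose was pal-1, the worm's Caudal gene, whose RNA is made in the germline, at 1.17 ± 0.23 and 1.71 ± 0.22. The 2 that oscillated were dve-1, at 1.72 and 1.38, and irx-1, at 1.38 and 1.14. Higher in course B at the shared times were 3 of the 39, hmbx-1, zfh-2 and zag-1, where 1.79% of all genes and no ceh gene were. Of the 2 cofactors without a homeobox 1 fell in both courses, ldb-1, a partner of LIM homeodomain proteins, at -1.18 ± 0.21 and -1.01 ± 0.19. The other, unc-37, the worm's Groucho-type corepressor, had -0.53 ± 0.11 and -0.78 ± 0.13 and was not called.

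Of the 63 members, 49 passed the filter on low counts in at least 1 course and 14 passed in neither: ceh-7, ceh-8, ceh-28, ceh-49, ceh-51, ceh-53, ceh-63, ceh-75, ceh-76, ceh-81, ceh-82, ceh-84, ceh-87 and ceh-90. The highest level any of these reached in a library was 1.06 CPM, for ceh-49, an ONECUT gene with 23 counts in course B and 91 in course A. ceh-76 had no count in any of the 26 libraries, which allows at most 0.0932 to 0.186 CPM in each. ceh-1 was tested in course B alone and ceh-5 in course A alone. Of the other members tested in both courses, ceh-2, a relative of empty spiracles, had a peak-to-trough difference of 0.17 ± 0.56 in course B and 1.54 ± 0.51 in course A, where its adjusted p was 0.0722. ceh-79 had 0.99 ± 0.28 (adjusted p = 0.0683) and 0.67 ± 0.19 (adjusted p = 0.0244), and neither was called. ceh-88 shares exon sequence on its own strand with C49C3.6, which makes its counts uncertain, and had trends of -0.51 ± 0.14 and -0.08 ± 0.23. The trends of ceh-2, ceh-19, ceh-23, ceh-58, ceh-62, ceh-74, ceh-79, ceh-88 and ceh-89 lay between -1.23 and 0.24 in course B and between -1.28 and 0.01 in course A. Of these ceh-23, a gene of the CAN and AIY neurons, fell in course A alone, at -1.28 ± 0.31, and had -0.90 ± 0.22 in course B.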

How the data were processed

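Total RNA of whole N2 worms was sequenced, per the labels' protocols, after isolation with Tri-Reagent and library preparation with the ScriptSeq v2 kit. The authors deposited 1 table of raw counts per gene and 1 table of log2 values, each with 1 column per library. Recomputed as log2(x + 8), where x is the count after bringing its library to the course's mean total, the authors' log2 values were matched within 5.0e-05. For the aligner, the counting program, its use of strand and the genome build, nothing is stated in the sources used here, so overlapping genes can share reads and no coordinates or sequences are printed.

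Names were joined by identifier (18778 of 20182 genes). Chromosomes, exon lengths, overlaps and neighbours within 20 kb come from the Ensembl annotation of WBcel235. Genes that reached 10 counts (for a library of median size) in 3 or more libraries were fitted over the whole table with edgeR 4.0.16 in R 4.3.3 (TMM, robust quasi-likelihood F tests, Benjamini-Hochberg adjustment over all genes tested). Each course was fitted apart with an intercept, title time as a line, and an 8 h cosine and sine. The courses were compared at 8 shared times with time as a block, and their trends by an interaction over all 26 libraries. Neighbouring times can deviate together, which these fits do not allow for. Errors after ± are standard errors of the fit unless marked SD. The fits were tested on simulated data with a fixed spread. Changes were planted only in genes with higher counts than many of the members had, so that test does not cover those members. Alternatives used DESeq2 1.42.0 and limma 3.58.1, other scalings, filters, periods and time terms, the harvest times, and fits without each single library.

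The ceh members, the homeodomain classes, the list of other homeobox genes and the marker lists were chosen with earlier results of these data known. Named by rule were members called in both courses or different between them, up to 3 per class called in 1 course, and the 5 uncalled members with the highest mean CPM. The other members named were chosen for their class or role after their values were seen, as were the genes that overlap them.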

Additional observations from a re-analysis of the deposited data

Results flagged for a closer look

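The levels of 29 members were screened in the 10 libraries of course B for a single library far from the rest. A library was singled out when its gap to the nearest other library, divided by the whole range, was above Dixon's critical value for 10 values. Chance alone does this for about 1 in 20 groups of independent values from 1 normal distribution. The libraries form a time course, and most of these members were named for a trend or cycle. That rate therefore does not apply here. There were 2 values singled out. ceh-17 had 2.3 CPM at 18 h, and the next highest library had 1.35 CPM, a gap of 0.476 of the range. ceh-99 had 8.24 CPM at 28 h, and the next highest library had 4.88 CPM, a gap of 0.468 of the range.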

How the results depend on the processing

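With no fold minimum, 22 members fell in both courses (2147 of all 14920 genes), 4 were higher (1903 of 15639) and 5 lower (2649) in course B at the shared times. Scaling by total counts alone gave 4 lower members (2231 genes, against 1211) and moved the median trend of all genes in course A to -0.0895, against 0.0447. DESeq2's test gave 1 member higher in course B, ceh-45. limma on the deposited log2 values gave 1 oscillating member, ceh-40, and 9 falling ones, and 8 added counts understate the changes of low genes. A period of 7 h, or of 9 h, left 0 members oscillating in both courses, and 21 genes of the whole table were called so at 7 h and 0 at 9 h. Lower in course B were 3 members with course A taken 3 h earlier and 2 by harvest times. With single libraries left out, 0 to 3 members oscillated in both courses, 0 of them without the course B libraries of 22 or 30 h. Falling members then numbered 11 to 15, rising ones 2 to 2, those higher in course B 0 to 0 and those lower 1 to 2. The second lower member was ceh-36 without the 24 h pair and ceh-12 without that of 28 h. The trend differed for 0 to 1 member, ceh-54 without course B's 36 h. The uncalled course B trend of ceh-86 ranged from -1.219 to 0.3116 with single libraries left out and was 0.06152 at a period of 7 h. That of ceh-54 ranged from -0.8674 to 0.2234. The calls of ceh-16, ceh-20, ceh-22, ceh-27, ceh-43, ceh-45, ceh-60 and ceh-92 in both courses, and of ceh-5 between them, held under all alternatives run. The labels give the courses no shared replicate numbers, and with no time block, which ties libraries of equal title time, 1 member was lower in course B. No paired analysis was possible because no culture was sampled in both courses. Counts under 100 in a course, as for ceh-36 and ceh-5, limit what can be called. No counts over all genes are given here for limma, DESeq2's test, harvest times, no time block or fits without single libraries. The member counts under those settings therefore do not show whether the members moved apart from all genes.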
